A study of Mus musculus with 45 samples.

Results

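Egr1, Egr2, Egr3 and Egr4 of the early growth response family and Nr4a1, Nr4a2 and Nr4a3 of the Nr4a nuclear receptor family were chosen by their symbols, and all 7 were present, with 1 row each, among the 22080 genes of the expression table. Their transcripts were measured on 45 Affymetrix gene arrays, of which liver, kidney and brain had 15 each, in male C57BL/6 mice that entered the study at 7 weeks of age and were killed, after food and water were withdrawn, on day 43. There were 5 diets with 8 mice each. Control mice ate AIN-93 diet alone. The other 4 groups had 0.5% cholesterol added to the food, with nothing else (HCD), with 1% of a Ganoderma lucidum mushroom extract (HCD+Gl-1), with 1% of an extract from mushrooms grown on a substrate holding 10 mM acetylsalicylic acid (HCD+Gl-2), or with 0.03% by weight of the cholesterol-lowering drug simvastatin (HCD+Sim). Each array carried pooled RNA. By the study's methods, pool A held 4 mice of a group, pool B the other 4, and pool C was mixed from A and B. This leaves 2 independent pools behind the 3 arrays of each group, so p-values measure a spread that is partly technical.

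Egr proteins are zinc finger transcription factors that bind GC-rich DNA, and Nr4a proteins are orphan nuclear receptors whose activity is set mainly by how much of them is made. Both families are immediate early genes: growth factors, hormones, calcium signals and tissue stress switch them on through serum response factor and the cAMP response element binding protein (CREB) without new protein synthesis, and their transcripts are short-lived. In brain they follow neuronal activity, in liver and kidney they follow hormones, feeding and injury, and Nr4a1 is known as a driver of hepatic glucose production.

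Sequences before the transcript start are shown for the members whose transcripts moved together in kidney (Egr2, Nr4a1, Nr4a2 and Nr4a3, below) and for Egr4, which did not. RefSeq promoter windows of build GRCm38.p6 were at hand for these 5 members. Egr3 and Egr1 are named only. Each line gives the 250 bases that end next to the annotated transcript start, 5′ to 3′ on the gene's strand. Egr2 had 5 windows in the table, of which 1 is shown. Capitals mark 3 motifs searched on both strands: TGACG, the core of the cAMP response element to which CREB binds, the Egr site GCGGGGGCG, and the CArG box to which serum response factor binds. No motifs overlapped in these windows.
Egr2, chr10:67537619-67537868, plus strand: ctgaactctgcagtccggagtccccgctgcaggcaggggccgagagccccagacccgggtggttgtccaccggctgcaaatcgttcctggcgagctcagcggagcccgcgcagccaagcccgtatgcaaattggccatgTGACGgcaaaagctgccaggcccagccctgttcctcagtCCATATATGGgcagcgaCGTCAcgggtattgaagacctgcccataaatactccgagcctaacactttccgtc
Egr4, chr6:85513590-85513839, minus strand: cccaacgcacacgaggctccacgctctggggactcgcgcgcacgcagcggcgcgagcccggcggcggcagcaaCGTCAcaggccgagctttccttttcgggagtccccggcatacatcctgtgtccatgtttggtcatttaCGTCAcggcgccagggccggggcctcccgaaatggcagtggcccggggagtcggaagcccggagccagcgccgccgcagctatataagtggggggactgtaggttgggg
Nr4a1, chr15:101266596-101266845, plus strand: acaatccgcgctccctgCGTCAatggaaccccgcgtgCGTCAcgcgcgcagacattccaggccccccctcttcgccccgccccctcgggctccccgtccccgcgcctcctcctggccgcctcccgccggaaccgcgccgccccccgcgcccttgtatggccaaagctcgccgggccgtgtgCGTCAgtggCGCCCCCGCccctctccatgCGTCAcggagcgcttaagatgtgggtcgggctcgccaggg
Nr4a2, chr2:57124004-57124253, minus strand: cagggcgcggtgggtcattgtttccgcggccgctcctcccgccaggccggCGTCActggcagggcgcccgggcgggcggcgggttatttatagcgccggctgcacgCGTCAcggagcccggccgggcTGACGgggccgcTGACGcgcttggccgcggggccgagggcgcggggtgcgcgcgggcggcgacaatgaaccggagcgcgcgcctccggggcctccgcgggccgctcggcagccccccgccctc
Nr4a3, chr4:48045055-48045304, plus strand: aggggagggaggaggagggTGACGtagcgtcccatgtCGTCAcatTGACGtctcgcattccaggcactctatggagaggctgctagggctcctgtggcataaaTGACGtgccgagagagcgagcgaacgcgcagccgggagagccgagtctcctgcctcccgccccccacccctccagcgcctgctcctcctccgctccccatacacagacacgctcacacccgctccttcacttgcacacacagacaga
The TGACG core was found 4 times in each of the Nr4a1, Nr4a2 and Nr4a3 windows and 2 times in each of the Egr2 and Egr4 windows. Of 32851 such windows over the genome, 17.8% held it at least 1 time, 3.9% at least 2 times and 0.137% at least 4 times. These windows were not matched in base content to the 5 shown, and the core itself holds the pair CG. The CArG box lay 72 to 63 bases before the Egr2 start and was in 1.47% of all windows. The Egr site lay 60 to 52 bases before the Nr4a1 start and was in 2.57% of all windows. The palindrome TGACGTCA and the Nr4a site AAAGGTCA were in none of the 5 windows. These are matches of letters in a window, and binding was not measured.

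All values below are the deposited log2 expression values, in which 1 unit is a 2-fold difference. Values of different genes come from different probes and were not compared with each other. Array medians ran from 6.76 to 6.92, and arrays within a group correlated over all genes with r from 0.985 to 0.997. Within groups, the median SD of a gene was 0.0986 for kidney, 0.111 for brain and 0.137 for liver. The labelled tissues matched their markers: the mean level of 7 hepatocyte markers was 13.15 to 13.26 on liver arrays and at most 9.30 elsewhere, that of 8 kidney epithelium markers 11.69 to 11.85 on kidney arrays and at most 6.26 elsewhere, and that of 8 brain cell markers 10.45 to 10.76 on brain arrays and at most 6.86 elsewhere. A gene was called where limma, fitted over all 45 arrays, gave an absolute log2 fold change over 0.7 and a Benjamini-Hochberg adjusted p of at most 0.05. The fit pooled the spread of a gene over the groups of all tissues, so its SE and intervals are not those of a single tissue. For Egr1, Egr2 and Nr4a1 the group with the largest SD was liver HCD+Gl-2, where Egr1 arrays ran from 6.98 to 11.16.

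**Figure D1:**
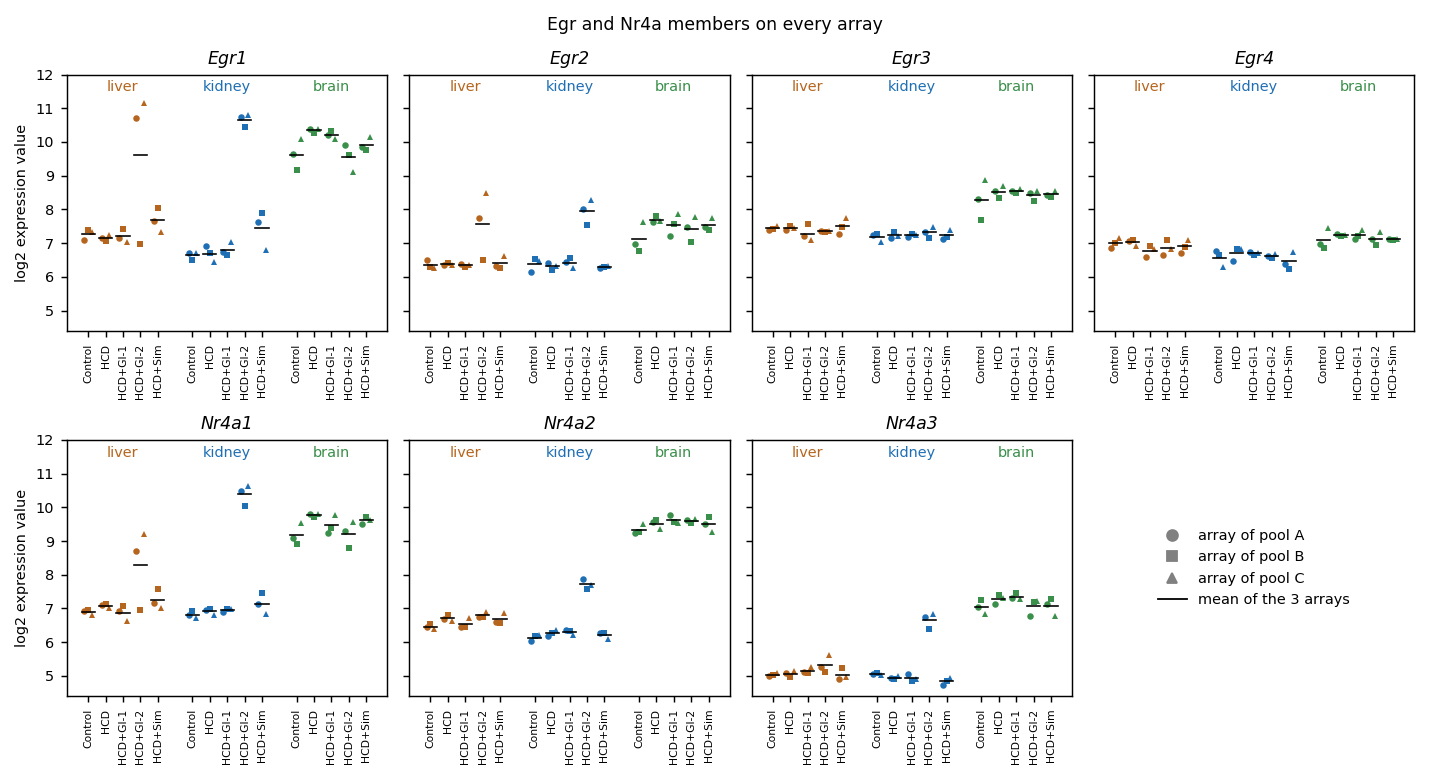
Log2 expression value (y axis) of each member on all 45 arrays, by tissue and diet (x axis). Symbols are the arrays of pools A, B and C, and black lines are group means. In kidney, 5 members stand high on all 3 HCD+Gl-2 arrays, in liver 3 members stand high on HCD+Gl-2 arrays A and C with array B near the other groups, and in brain Nr4a2 keeps between 9.25 and 9.77.

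In kidney, 5 of the 7 members rose with Gl-2 on the high-cholesterol diet, and no array of the HCD+Gl-2 group overlapped any HCD array for them, as in 20.4% of all genes. Egr1, the most studied Egr factor, read 10.73, 10.44 and 10.80 on the HCD+Gl-2 arrays of pools A, B and C against 6.92, 6.70 and 6.45 on the HCD arrays. Nr4a1, the receptor tied to glucose production, read 10.47, 10.05 and 10.62 against 6.94, 6.98 and 6.81. Both were higher by more than 3 log2 units on every Gl-2 array than on any HCD array. Egr2, known for its part in myelination and lymphocyte restraint, read 8.02, 7.54 and 8.28 against 6.42, 6.22 and 6.33. Nr4a2, a factor that dopamine neurons need, read 7.87, 7.59 and 7.69 against 6.20, 6.29 and 6.35. Nr4a3, the third Nr4a receptor, read 6.75, 6.39 and 6.83 against 4.94, 4.92 and 4.99. These 3 were separated from HCD by 1.12 to 1.40 log2 units between the nearest arrays.

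The fold changes in kidney were 15.7 for Egr1 (log2 3.97, SE 0.48, 95% interval 3.00 to 4.94, adjusted p = 3.54e-07), 11.1 for Nr4a1 (log2 3.47, SE 0.28, adjusted p = 2.36e-11) and 3.27 for Nr4a3 (log2 1.71, SE 0.13, adjusted p = 6.66e-12). Egr2 was 3.08-fold higher (log2 1.62, SE 0.25, adjusted p = 6.89e-05) and Nr4a2 2.71-fold higher (log2 1.44, SE 0.10, adjusted p = 2.04e-12). Among all 22080 genes, Egr1 and Nr4a1 had the highest and the next highest log2 fold change of this comparison, and Nr4a2 and Nr4a3 the smallest and the next smallest p. Over all genes 0.335% were called, and the median log2 fold change was 0.01, against 1.62 over the 7 members. In tissue RNA, more cells of a type and more RNA per cell cannot be told apart.

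Egr3 and Egr4 were the exceptions in kidney. Egr3, a factor of muscle spindles and lymphocytes, read 7.33, 7.16 and 7.49 with Gl-2 against 7.14, 7.32 and 7.23 on HCD, a log2 difference of 0.10 (95% interval -0.22 to 0.41, adjusted p = 0.966). Egr4, which acts in germ cells and neurons, read 6.62, 6.57 and 6.69 against 6.48, 6.82 and 6.82, a log2 difference of -0.08 (95% interval -0.36 to 0.19, adjusted p = 0.967). Their arrays overlapped between the groups. Egr4 averaged 6.61 in kidney, under the median of all values (6.84), where background can hide small differences.

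The kidneys of the other diets stayed low for the 5 members that rose. Over the 12 kidney arrays without Gl-2, Egr1 ran from 6.45 to 7.88, Egr2 from 6.14 to 6.56, Nr4a1 from 6.71 to 7.45, Nr4a2 from 6.04 to 6.35 and Nr4a3 from 4.73 to 5.08. The lowest Gl-2 array lay above each of these ranges. Set against HCD+Gl-1, the extract grown without acetylsalicylic acid, Gl-2 was higher by 3.86 (SE 0.48, adjusted p = 1.25e-06) for Egr1, 1.53 (SE 0.25) for Egr2, 3.41 (SE 0.28) for Nr4a1, 1.42 (SE 0.10) for Nr4a2 and 1.71 (SE 0.13) for Nr4a3 on the log2 scale. Against HCD+Sim the same 5 were called, from 1.51 for Nr4a2 to 3.24 for Nr4a1. The shares of all genes called were 0.181% and 0.222% in these comparisons, which were added after the values had been seen. All 3 kidney comparisons share the Gl-2 arrays.

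No member was called in kidney for HCD against Control (0.0408% of all genes called), HCD+Gl-1 against HCD (0.131%) or HCD+Sim against HCD (0.14%), and none had an unadjusted limma p under 0.05 there. Of all 22080 genes, 988, 883 and 1366 had such a p in these comparisons. Egr1 under simvastatin read 7.62, 7.88 and 6.80, a log2 difference from HCD of 0.75 (SE 0.48, adjusted p = 0.875). Arrays A and B stood above every HCD array and array C did not. The SE also holds the wide spread of Egr1 in liver HCD+Gl-2, and no member was called here in a fit of the kidney arrays alone either. The remaining 20 differences in these comparisons lay between -0.25 and 0.23.

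**Figure D2:**
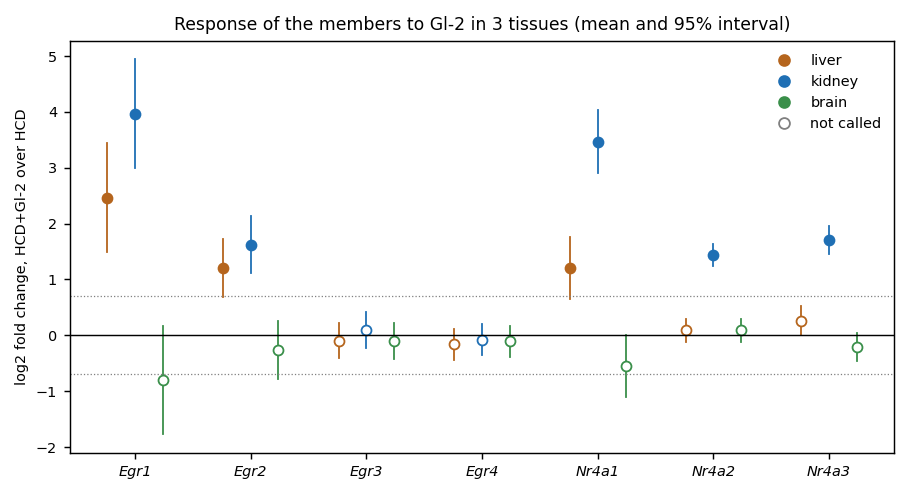
Log2 fold change of HCD+Gl-2 over HCD (y axis) for each member (x axis) in liver, kidney and brain, as the mean of 3 arrays a group with the 95% interval of the limma fit; filled points were called, and dotted lines mark the fold threshold of 0.7. Kidney is highest for Egr1, Egr2 and the Nr4a members, and Egr3 and Egr4 lie near 0 in all 3 tissues.

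Other immediate early genes were called beside the members in kidney. Of 8 genes for subunits of the transcription factor AP-1 and Atf3, 5 were called higher and none lower: Fos by 2.69, Jun by 2.11, Atf3 by 1.37, Fosb by 1.07 and Junb by 0.91 on the log2 scale. The median of these 8 was 0.99. Of 24 feedback and delayed genes, 8 were called higher and none lower, with a median of 0.46. They were led by Cyr61, a secreted matrix protein, at 2.68, by Btg2, a growth-arrest gene, at 2.13, by Zfp36, which speeds mRNA decay, at 1.80, and by Dusp1, a phosphatase of MAP kinases, at 1.61. Ier2 at 1.48 and Ier3 at 1.43 followed, and the other 2 called were Klf6 and Dusp6.

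Upstream, partner and target genes of the members were mostly not called in kidney. None of 22 upstream kinases and factors, such as Srf, Creb1 and the ERK kinases, was called (median 0.01), nor any of 5 Egr cofactors (median -0.03), 3 retinoid X receptors that pair with Nr4a proteins (median 0.04) or 10 growth factor and Egr target genes (median 0.09). Of 8 hepatic Nr4a targets and gluconeogenic genes, Pdk4, a brake on glucose oxidation, was called at 0.71, and it was also called with Gl-1 and with simvastatin (0.95) against HCD. Of 10 neuronal activity genes, 2 were called, Fosb and Arc (0.74). Of 8 heat shock and tissue handling genes, 3 were called higher (Hspa1a, Hspa1b and Dnajb1). Their mean level per array was 9.84, 9.41 and 10.01 with Gl-2 against 9.08 to 9.14 on HCD, so array B was the lowest of the Gl-2 arrays here as it was for all 5 members. The part of tissue handling in the kidney result was not tested. No gene of the macrophage, neutrophil, lymphocyte, endothelial, hepatocyte or adipose marker lists was called in this comparison.

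**Figure D3:**
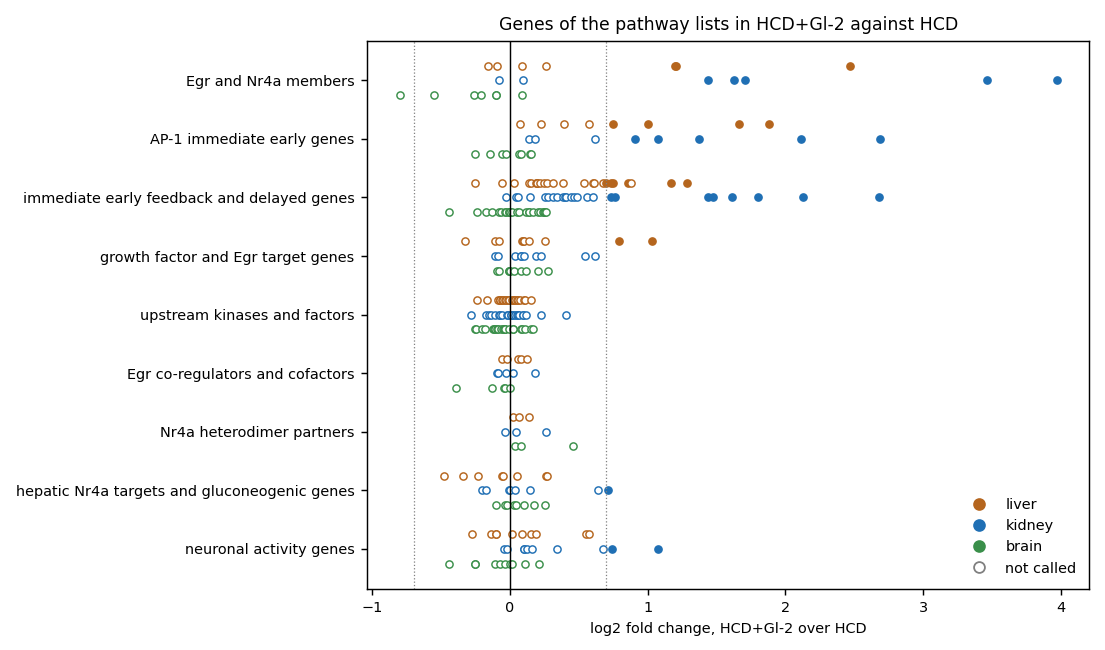
Log2 fold change of HCD+Gl-2 over HCD (x axis) for the genes of 9 lists (y axis), in liver, kidney and brain from top to bottom within a list; filled points were called and dotted lines mark 0.7. Outside the member, AP-1 and feedback lists, the called points in kidney are Pdk4, Fosb and Arc, and no brain gene of these lists was called.

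In liver, 3 of the 7 members were called with Gl-2, with high values on 2 of the 3 arrays. Egr1 read 10.72, 6.98 and 11.16 on arrays A, B and C against 7.14, 7.07 and 7.25 on HCD. Egr2 read 7.74, 6.50 and 8.48 against 6.36, 6.41 and 6.34, and Nr4a1 read 8.69, 6.97 and 9.20 against 7.10, 7.15 and 7.01. Array B lay below the HCD arrays for Egr1 and Nr4a1 and 0.09 above the highest HCD array for Egr2. The mean of Egr1 was 9.62 with Gl-2 against 7.15 on HCD, a log2 fold change of 2.47 (SE 0.48, adjusted p = 0.00213). The mean of Egr2 was 7.57 against 6.37 (95% interval of the difference 0.69 to 1.72, adjusted p = 0.00539), and that of Nr4a1 was 8.29 against 7.09 (0.64 to 1.76, adjusted p = 0.0123). Of all genes 0.303% were called. Without array C none of the 3 passed, with log2 fold changes of 1.70, 0.75 and 0.74 and adjusted p of 0.0643, 0.136 and 0.22. Nr4a1 also lost its call without Gl-2 array A (adjusted p = 0.0939) or HCD array C (adjusted p = 0.0522). Without array B the log2 fold change of Egr1 was 3.79 and that of Nr4a1 1.86. None passed in a fit of the liver arrays alone, with adjusted p of 0.185, 0.153 and 0.244.

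The other 4 members were not called in liver. Nr4a2 read 6.75, 6.75 and 6.90 with Gl-2 against 6.69, 6.81 and 6.62 on HCD (log2 difference 0.09, SE 0.10, adjusted p = 0.794). Nr4a3 read 5.26, 5.11 and 5.64 against 5.09, 4.98 and 5.15 (0.26, SE 0.13, adjusted p = 0.377), with array C the highest of the 15 liver arrays. Its arrays A and C stood above every HCD array and array B did not, in the same order as for the 3 called members. With those 3 it made 4 members at an unadjusted limma p under 0.05 in this comparison, as had 2776 of the 22080 genes. Egr3 read 7.36, 7.32 and 7.36 against 7.39, 7.50 and 7.44 (-0.09, SE 0.16, adjusted p = 0.881). Egr4 read 6.64, 7.09 and 6.84 against 7.06, 7.10 and 6.90 (-0.16, SE 0.14, adjusted p = 0.694). These 4 had intervals within 0.52 of 0 on the log2 scale. Nr4a2 and Nr4a3 averaged 6.63 and 5.13 in liver, under the median of all values (6.84), where background can hide small differences.

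Against the other liver treatments the same 3 members were called. Against HCD+Gl-1 (0.172% of all genes called), Egr1 was higher by 2.42, Egr2 by 1.22 and Nr4a1 by 1.41, and against HCD+Sim (0.285%) by 1.95, 1.17 and 1.03, with adjusted p of 0.0284, 0.00901 and 0.048. Without Gl-2 array C 0 members were called in either, and against HCD+Sim also 0 without Gl-2 array A and 1, Egr2, without HCD+Sim array A or C. Egr2 itself lost its call there without HCD+Sim array B (adjusted p = 0.0559). HCD against Control (0.245%), HCD+Gl-1 against HCD (0.163%), HCD+Sim against HCD (0.258%) and HCD+Gl-1 against HCD+Sim (0.249%) gave no call among the members. At an unadjusted limma p under 0.05 these 4 comparisons held 1 member, Nr4a2, at 6.69, 6.81 and 6.62 on HCD against 6.46, 6.54 and 6.38 on Control (0.25, adjusted p = 0.317). Of all 22080 genes, 2277 had such a p in HCD against Control, and up to 4695 in the others. Egr1 under simvastatin read 7.66, 8.03 and 7.33, above every HCD array, by 0.52 in the mean (SE 0.48, adjusted p = 0.744). The mean level of 8 pancreas acinar markers was 7.63, 8.11 and 6.54 on the same arrays against 6.29 to 6.42 on HCD, and that of 8 skeletal muscle markers 7.67, 8.11 and 6.53 against 6.40 to 6.66, with 7 and 5 of them called. Array B was highest and array C lowest for both lists and for Egr1, and their part in the Egr1 level was not tested. In kidney the same lists read 6.06 to 6.19 and 6.09 to 6.22 on the simvastatin arrays.

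Other immediate early genes were called in liver too. Of 8 AP-1 genes, 4 were called with Gl-2 against HCD (Fos 1.88, Jun 1.67, Atf3 1.00 and Junb 0.75), and of 24 feedback and delayed genes 6 were called, led by Btg2 at 1.29, Ier2 at 1.17 and Sik1 at 0.86. Medians were 0.66 and 0.35 against 0.01 over all genes. Thbs1, a growth factor and Egr target list gene that encodes thrombospondin, rose by 0.79. None of the 8 hepatic Nr4a target and gluconeogenic genes was called (median -0.05), and none of the upstream kinases, cofactors, retinoid X receptors or neuronal activity genes. Of 8 heat shock and tissue handling genes, 4 were called (Hspa1a, Hspa1b, Hsph1 and Dnajb1), and their mean level was 9.57, 8.59 and 9.88 on Gl-2 arrays A, B and C against 8.53 to 8.69 on HCD. Array B was again near HCD, and the part of tissue handling was not tested. No gene of the 7 hepatocyte markers or of the 8 macrophage markers was called, with medians of 0.01 and 0.09.

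The test of the difference between liver and kidney called the 3 Nr4a members and no Egr member. The response to Gl-2 was smaller in liver than in kidney by 2.27 (SE 0.39, adjusted p = 0.000701) for Nr4a1, by 1.35 (SE 0.14, adjusted p = 1.8e-07) for Nr4a2 and by 1.44 (SE 0.18, adjusted p = 2.06e-06) for Nr4a3 on the log2 scale. For Egr1 the difference was -1.50 with a 95% interval of -2.88 to -0.13 (adjusted p = 0.493), and for Egr2 it was -0.42 (-1.15 to 0.31, adjusted p = 0.823). These 2 did not pass. The interval of Egr1 lies wholly below 0, and its estimate is larger in size than those of the called Nr4a2 and Nr4a3. Its SE also holds the wide spread of Egr1 in liver HCD+Gl-2. The interval of Egr2 holds 0 and does not exclude a difference. The calls therefore do not set the Egr family apart from the Nr4a family. Kidney and brain differed in 5 members, by 4.77 for Egr1, 4.02 for Nr4a1, 1.91 for Nr4a3, 1.89 for Egr2 and 1.35 for Nr4a2. Liver and brain differed in Egr1 (3.26), Nr4a1 (1.75) and Egr2 (1.47, adjusted p = 0.0426). The count went to 0 without liver Gl-2 array A or C. It went to 1, Egr1, without liver HCD array A or C, brain HCD array A or C, or brain Gl-2 array B. Of 12 fits that each left out 1 array, Egr2 lost its call in 10, Nr4a1 in 7 and Egr1 in 2. Over all genes 0.326% were called for liver and kidney, 0.326% for kidney and brain and 0.276% for liver and brain. In the 9 tissue differences for the other diet changes no member was called, the smallest adjusted p was 0.442, and the values ran from -0.83 to 1.18.

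Pool C should lie between pools A and B where the measurement is exact, since by the methods it was mixed from them. Over all genes it lay outside the range of A and B in 64.5% to 79.6% of genes by group, and for the 7 members in 85 of 105 member and group pairs, or 81.0%. Where A and B are alike, noise alone puts a further reading outside their range in most genes. These shares alone therefore do not show how well C matched a mix. In liver HCD+Gl-2, an equal mix of A and B would read 9.83 for Egr1, 7.25 for Egr2 and 8.07 for Nr4a1. Array C was above this by 1.33, 1.23 and 1.13, distances that 0.0317%, 0.0408% and 0.0634% of genes exceeded in that group. In kidney HCD+Gl-2 the distances were 0.21 for Egr1, 0.48 for Egr2, 0.34 for Nr4a1, -0.05 for Nr4a2 and 0.25 for Nr4a3. In kidney HCD+Sim, array C lay 0.96 below the equal mix for Egr1, and 0.00906% of genes lay farther from theirs. In brain Control the distances of array C were 0.86 for Egr3, 0.73 for Egr2 and -0.33 for Nr4a3. The mean of 8 cerebellum markers was 6.14 on that array, against 9.17 and 9.73 on arrays A and B. Gl-2 array B was the lowest of its group for Egr1 in both organs, at -2.64 from the group mean in liver and -0.21 in kidney. For Egr2 it was the lowest in liver, kidney and brain (-1.07, -0.41 and -0.39), as for Nr4a1 (-1.32, -0.33 and -0.43). It was not the lowest for Egr1 and Nr4a3 in brain or for Egr4 in liver. The sources used here do not say whether a pool letter marks the same mice in each tissue.

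**Figure D4:**
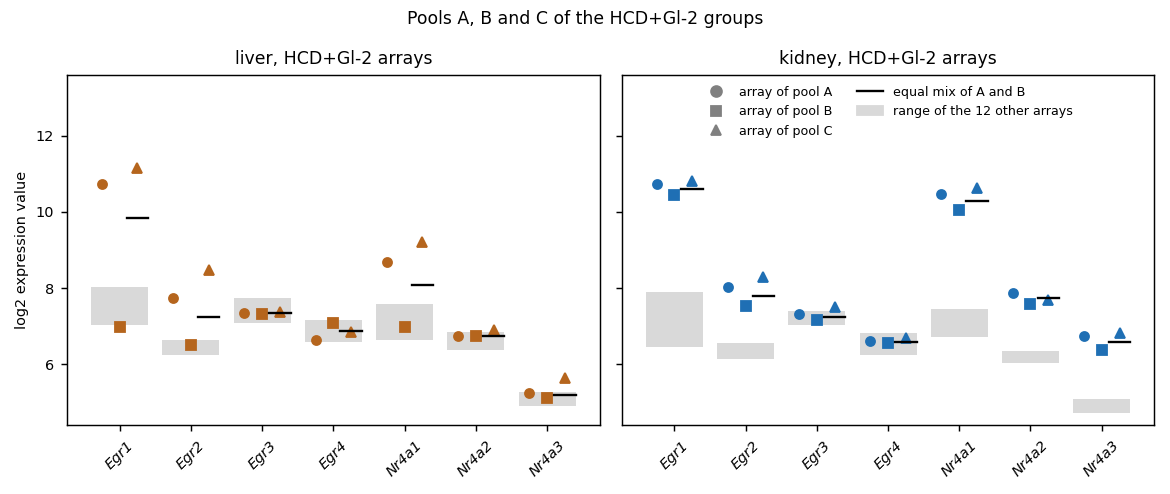
Log2 expression value (y axis) of each member (x axis) on the 3 HCD+Gl-2 arrays of liver (left) and kidney (right), with the range of the 12 arrays of the other diets in grey and the value of an equal mix of pools A and B as a black line. Liver array C stands 1.33 above the line for Egr1, and kidney arrays A, B and C stand together above the grey range for 5 members.

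In brain no diet comparison called any member, and the arrays of some groups lay far apart. Egr1 read 9.63, 9.16 and 10.09 on Control, 10.39, 10.27 and 10.37 on HCD, 10.22, 10.34 and 10.09 with Gl-1, 9.92, 9.60 and 9.12 with Gl-2 and 9.85, 9.75 and 10.15 with simvastatin. Nr4a1 read 9.08, 8.92 and 9.54 on Control, 9.80, 9.71 and 9.80 on HCD, 9.25, 9.40 and 9.76 with Gl-1, 9.30, 8.78 and 9.57 with Gl-2 and 9.49, 9.71 and 9.63 with simvastatin. HCD had the highest group mean of both and its 3 arrays were the closest together.

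All 7 members were higher on HCD than on Control in the brain group means, by 0.14 for Egr4 to 0.72 for Egr1 (SE 0.48, adjusted p = 0.901). The shares of all genes called were 0.0317% for HCD against Control, 0.00906% for HCD+Gl-1, 0.0226% for HCD+Gl-2 and 0% for HCD+Sim against HCD. At an unadjusted limma p under 0.05 there were 2 members in the first of these, Egr2 at 0.57 and Nr4a1 at 0.59, and none in the other 3. Of all 22080 genes, 1423 had such a p in the first. HCD+Sim called no gene at all, while 1220 genes had an unadjusted limma p under 0.05. With Gl-2, Egr1 was -0.80 from HCD (95% interval -1.77 to 0.17, adjusted p = 0.827) and Nr4a1 was -0.55 (-1.11 to 0.01, adjusted p = 0.757), and for both no array overlapped HCD, as in 14.6% of all genes. These intervals, and the SE of Egr1 above, also hold the wide spread of both genes in liver HCD+Gl-2. They do not measure the spread of the brain arrays alone. In a fit of the brain arrays alone, no member was called in any of the 4 comparisons either. The groups did not overlap for 3 members in HCD against Control (11.7% of all genes) and for 3 in HCD+Sim against HCD (15.4%). All 4 comparisons share the HCD arrays.

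Markers of brain regions moved between the brain arrays too, and the 8 cerebellum markers moved most. Their mean level was 9.17, 9.73 and 6.14 on Control arrays A, B and C, 8.33, 7.67 and 8.78 on HCD and 7.37, 7.81 and 6.45 with Gl-2. The mean of 8 striatum markers was 8.45, 7.81 and 9.52 on Control against 8.60 to 8.89 on HCD, and that of 8 cortex and hippocampus markers 8.36, 8.00 and 8.76 against 8.53 to 8.62. Egr1, Egr2, Egr3, Egr4 and Nr4a1 took the order of the striatum list over the Control arrays, with B lowest and C highest, and the cerebellum list took the opposite order. In Gl-2 against HCD, where Egr1 and Nr4a1 were lower without a call, the cerebellum list had a median log2 fold change of -0.97 (lowest -2.14) with none of its 8 genes called. The olfactory bulb list had a median of -0.44 there, with 2 of 8 called lower (Doc2g and Cdhr1). In HCD against Control the same 2 were called higher, as was 1 of 8 pituitary markers (Gh).

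The relation of Egr1 and Egr3 to these lists depended on the Control arrays, and that of Nr4a2 did so less. Over the 15 brain arrays, the Pearson r of Egr1 was 0.03 with the cerebellum list and 0.23 with the olfactory bulb list, and over the 12 without Control it was 0.823 and 0.765. Egr1 with the striatum list went from 0.23 to -0.53. Egr3 went from 0.73 to -0.20 with the striatum list and from 0.76 to -0.23 with the cortex and hippocampus list. Nr4a2 went from 0.72 to 0.84 with the striatum list and from -0.60 to -0.57 with the cerebellum list. By the methods pool C was mixed from A and B, so no p is given. On brain Control, array C lay outside A and B for the cerebellum list (6.14 against 9.17 and 9.73). It did so for the striatum list too (9.52 against 8.45 and 7.81). What set this array apart and the part of the dissected region in the brain values were not tested.

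On the Control diet, brain stood above liver and kidney for 6 of the members. Nr4a2 read 9.25, 9.26 and 9.49 in brain, 6.46, 6.54 and 6.38 in liver and 6.04, 6.18 and 6.20 in kidney. Egr1 read 9.63, 9.16 and 10.09 in brain, 7.08, 7.38 and 7.32 in liver and 6.71, 6.51 and 6.72 in kidney. Nr4a1 lay between 8.92 and 9.54 in brain, 6.82 and 6.94 in liver and 6.71 and 6.93 in kidney. The log2 differences of liver from brain were -2.87 for Nr4a2 (SE 0.10, adjusted p = 8.77e-26), -2.36 for Egr1, -2.28 for Nr4a1, -2.01 for Nr4a3, -0.85 for Egr3 and -0.77 for Egr2. Those of kidney from brain were -3.20, -2.98, -2.36, -1.98, -1.11 and -0.74 in the same order. Egr4 was the exception, at -0.09 for liver (adjusted p = 0.554) and -0.53 for kidney, where the adjusted p was 0.000906 but the difference stayed under the fold threshold. Without brain Control array C, Egr2 lost its call against liver (-0.53) and kidney (-0.50) and Egr3 against liver (-0.56), and Egr2 also lost it against kidney without kidney Control array A (-0.62).

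These tissue differences stand against a large background, since 32.7% of all genes were called between liver and brain and 30% between kidney and brain. Between liver and kidney 16.8% of genes were called and no member was. Egr4 and Nr4a2 were higher in liver by 0.44 and 0.32, each with adjusted p = 0.00742. In all, 2 members had an unadjusted limma p under 0.05, as had 11880 of the 22080 genes. With Gl-2, kidney Egr1 at 10.44 to 10.80 and Nr4a1 at 10.05 to 10.62 read above the highest brain array of any diet, at 10.39 and 9.80. Nr4a2 and Nr4a3 in the same kidneys, up to 7.87 and 6.83, read below most or all brain arrays, whose ranges were 9.25 to 9.77 and 6.79 to 7.45. Kidney Gl-2 arrays were not tested against brain arrays.

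The genes whose pattern over the 15 kidney arrays was most like that of Egr1 were Nr4a1 (Pearson r 0.988), Cyr61 (0.987), Fos (0.981), Jun (0.980) and Btg2 (0.978). Those most like Nr4a1 in kidney were Btg2 (0.994), Fos (0.991), Egr1 (0.988), Nr4a2 (0.985) and Ier2 (0.984). In liver the genes nearest to Egr1 were Dnajb1 (0.979), Nr4a1 (0.979), Btg2 (0.976), Btbd19 (0.966) and Jun (0.961), and those nearest to Nr4a1 were Egr1, Btbd19 (0.97), Dusp6 (0.967), Dnajb1 (0.966) and Jun (0.960). Each of the pair was among the 5 genes nearest to the other in both organs, and the Gl-2 arrays hold the highest values of both. In liver, leaving out the 2 arrays farthest from the median took the r of Egr1 with Nr4a1 from 0.979 to 0.745 and that of Egr1 with Egr2 from 0.938 to -0.50. The r of Egr1 was then 0.822 with Btg2, 0.628 with Btbd19, 0.559 with Jun and 0.339 with Dnajb1. Within kidney groups, the r of deviations from group means was 0.747 for Egr1 with Nr4a1 and 0.0805 for Egr1 with Egr2. It was 0.759 for Egr1 with Cyr61, 0.694 with Jun, 0.591 with Btg2 and 0.201 with Fos.

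In brain the neighbours were different genes. Those nearest to Egr1 were Tcf4 (0.922), Mtmr12 (0.894), R3hdm1 (0.891), Eif4enif1 (0.881) and Ncdn (0.867), and those nearest to Nr4a1 were Vmn1r230 (0.876), Msr1 (0.873), Egr2 (0.872), Ncor1 (0.847) and LOC101055939 (0.838). Egr1 and Nr4a1 had an r of 0.552 there. Arrays within a tissue share their diet groups, and by the methods pool C was mixed from pools A and B. These values therefore describe the arrays and carry no p.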

How the data were processed

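Pooled RNA of each group and tissue was hybridised to Affymetrix Mouse Gene ST v1.0 arrays. The authors corrected the signal for background by RMA, quantile normalized it with oligo, adjusted a batch effect with ComBat (the batches are not given in the sources used here), retained for each gene the probe set that varied most by interquartile range, and deposited log2 values for 45 arrays. Tissue, diet and pool letter came from the labels. In R 4.3.3, limma 3.58.1 was fitted with 15 group means over 45 arrays (residual degrees of freedom 30, prior 7.34) and Benjamini-Hochberg adjustment over 22080 genes within a comparison, after a check on simulated data. The number of arrays limits the precision: 3 against 3 arrays cannot give an exact permutation p under 0.1. That limit counts pool C as independent, and the 2 independent pools of a group cannot reach even 0.1. Named genes are the members, called genes of the pathway lists (at most 6 a list, with others named where all are counted) and the 5 most alike in pattern. The members and lists were chosen with earlier results of these data known. Alternatives were other sets of arrays, the pool letter as a replicate block, a filter on dim genes, another normalization, other moderation, no fold threshold, and leaving out each array. Promoter sequences are RefSeq's. A result of the liver target list is not reported here.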

Additional observations from a re-analysis of the deposited data

Results flagged for a closer look

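Differences between tissues in the response to Gl-2 against HCD stood out by the test of the difference itself (limma, called as above). The difference of liver and kidney was -2.27 for Nr4a1, -1.35 for Nr4a2 and -1.44 for Nr4a3 on the log2 scale. The difference of liver and brain was 3.26 for Egr1, 1.47 for Egr2 and 1.75 for Nr4a1. These 3 calls were lost in 2, 10 and 7 of the 12 fits that left out 1 array. The difference of kidney and brain was 4.77 for Egr1, 1.89 for Egr2, 4.02 for Nr4a1, 1.35 for Nr4a2 and 1.91 for Nr4a3. What sets the tissues apart was not tested.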

How the results depend on the processing

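Leaving out any 1 array kept 5 members called in each kidney comparison of Gl-2 (5 to 5), with Egr1 against HCD at 3.85 to 4.08. The other alternatives gave 4 to 5, the 4 where the filter on dim genes removed Nr4a3. In liver the Gl-2 calls depended on the setting. With pools A and B only, with a fit on the liver arrays and with a fit on the compared groups, 0 members were called for Gl-2 against HCD, HCD+Gl-1 and HCD+Sim, in place of 3. Leaving out 1 array gave 0 to 3 in each of the 3. Gl-2 array C ended all calls in each, and Gl-2 array A those against HCD+Sim, where leaving out HCD+Sim array A or C left 1 (Egr2), as did trend and robust moderation (1). Single calls were also lost for Nr4a1 against HCD without Gl-2 array A (adjusted p 0.0939) or HCD array C (0.0522), and for Egr2 against HCD+Sim without HCD+Sim array B (0.0559). Without Gl-2 array B, Egr1 rose to 3.79, Egr2 to 1.74 and Nr4a1 to 1.86 against HCD. For the difference of liver and brain, pools A and B only gave 0 in place of 3, and leaving out 1 array gave 0 to 3: it fell to 0 without liver Gl-2 array A or C and to 1 without liver HCD array A or C, brain HCD array A or C, or brain Gl-2 array B. Egr2 lost its call there in 10 of 12 such fits, and also with trend and robust moderation (adjusted p 0.0671). Without the fold threshold, 2 members (Egr4 and Nr4a2) passed between liver and kidney on Control. Arrays of the same pool letter in other diets correlated in their deviations by over 0.1 in 12 of 30 pairs in liver, 3 of 30 in kidney and 7 of 30 in brain. For pairs of unlike letters this was 2 of 60, 8 of 60 and 14 of 60. The same letter thus went with more such pairs in liver, and not in kidney or brain. The main fit left the letter out because the methods name no such block. With the pool letter as a replicate block, Nr4a1 in liver Gl-2 against HCD+Sim went to an adjusted p of 0.0509, and no other call of these members changed. With diet and pool letter as a replicate block across tissues, the 3 calls between liver and kidney for Gl-2 remained 3. No direction reversed in 725 values of single members, and 79 lost their call. The cause of these changes was not tested. Nr4a3 lay under the median of all values (6.84) on average over all arrays, so small differences of it can be hidden by background. By tissue, Egr2 (6.61 in liver, 6.67 in kidney), Nr4a2 (6.63 and 6.53) and Egr4 in kidney (6.61) lay under it too. The same limit holds for them there.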
